A study of Mus musculus with 9 samples.

Results

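The muscarinic acetylcholine receptors Chrm1 to Chrm5 were taken by symbol from the matrix of cholinergic nuclei of the adult mouse spinal cord, in which 4 of the 5 genes have a row among 21457 features. Chrm2 and Chrm3 carried nearly all of the family's signal, Chrm1 was rare, Chrm5 was listed at 0 in every nucleus, and Chrm4 was not analysed here. Levels are described over the 21 clusters the authors named, 3 of skeletal motor neurons (MNs; S1 to S3), 10 of visceral MNs (V1 to V10) and 8 of cholinergic interneurons (I1 to I8).

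Nuclei came from 12 mice of 8 weeks in 3 pools of 4, all carrying Chat-IRES-Cre and 1 copy of the Sun1-sfGFP reporter, so nuclei of cells that express or once expressed Chat were sorted as GFP+/DRAQ5+. All mice carried the same alleles and the labels name no treatment, so the groups compared are regions, pools and cell types. Each pool was cut into cervical, thoracic and lumbar/sacral cord, which gave 9 libraries. Replicate 1 pooled 2 males with 2 females, replicate 2 held males and replicate 3 females, so sex and pool cannot be told apart. The matrix holds 16042 nuclei (5054 skeletal, 5613 visceral, 5375 interneuron). The median was 4712 to 16127 corrected counts per nucleus by library, with the lowest medians in lumbar/sacral cord. Of these nuclei, 66 carry a cell barcode that occurs in more than 1 library. The class labels held against their markers: Tns1 was at 381 CPM (corrected counts of a group of nuclei scaled to a common total) in skeletal MNs, Fbn2 at 634 CPM in visceral MNs and Pax2 at 211 CPM in interneurons, each at most 31.3 CPM in the other classes. Transcripts of other cells were low but uneven: the 4 oligodendrocyte markers summed to 53.8 to 92.5 CPM in skeletal MNs, 36.1 to 61.1 CPM in visceral MNs and 35.3 to 51.8 CPM in interneurons, 4 astrocyte markers to at most 5.50 CPM. The 3 microglia markers ranged widely between libraries, from 7.13 to 118 CPM in skeletal MNs, 4.52 to 88.6 CPM in visceral MNs and 5.83 to 99.1 CPM in interneurons. The part of these transcripts in the results was not tested. Of the libraries, 2 went against their labels by genes of cord level. Hoxc5 was at 73.3 CPM in the library labelled cervical replicate 2 (25.4 and 22.5 CPM in the other cervical libraries) and at 13.9 CPM in the library labelled thoracic replicate 2 (85.3 and 84.2 CPM in the other thoracic ones), and Hoxa9 showed the same exchange. Without both libraries every class, skeletal type and visceral region difference called by limma below was called again, and values are given where a result rested on them.

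Muscarinic receptors are G protein-coupled receptors for acetylcholine. Chrm1, Chrm3 and Chrm5 couple mainly to Gq, which activates phospholipase C and, among other effects, closes the M-current potassium channels of the Kcnq family. Chrm2 and Chrm4 couple to Gi/o, which lowers cyclic AMP and opens GIRK potassium channels of the Kcnj family. In the spinal cord Chrm2 protein gathers opposite C-boutons, the large cholinergic synapses that spinal interneurons place on the cell bodies of alpha MNs, where it lies beside SK potassium channels.

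Chrm2 (ENSMUSG00000045613.9) spans 140.331 kb on the plus strand of chromosome 6, from 36388084 to 36528414 in GRCm38, and Chrm3 (ENSMUSG00000046159.16) spans 485.362 kb on the minus strand of chromosome 13, from 9875486 to 10360847. Both are long genes, and the authors counted intronic reads. The sequence just before the first transcribed base is shown for these 2 genes, since their levels split the cholinergic neurons, with TAAT (the core of many homeodomain binding sites, either strand) and CG pairs in capitals. The Chrm2 window is chr6:36387834-36388083 and the Chrm3 window chr13:10360848-10361053 (read on the minus strand), from RefSeq on GRCm38.p6.
Chrm2: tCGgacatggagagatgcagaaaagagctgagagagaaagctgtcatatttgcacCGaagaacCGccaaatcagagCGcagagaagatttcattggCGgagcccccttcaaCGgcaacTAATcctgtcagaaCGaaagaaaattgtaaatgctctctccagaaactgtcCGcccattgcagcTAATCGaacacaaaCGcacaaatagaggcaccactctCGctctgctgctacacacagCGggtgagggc
Chrm3: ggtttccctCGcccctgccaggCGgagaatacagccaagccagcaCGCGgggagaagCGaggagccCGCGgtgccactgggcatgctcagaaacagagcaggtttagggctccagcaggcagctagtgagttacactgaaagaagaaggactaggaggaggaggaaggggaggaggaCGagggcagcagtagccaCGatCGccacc
In the 250 bases before the RefSeq start, Chrm2 had 2 TAAT and 12 CG matches with a GC content of 50%, and Chrm3 had 0 TAAT and 10 CG matches with 61.2% GC. Over 32851 such windows of mouse genes, 54.9% held TAAT and 92.1% held CG, with a median of 6 CG, so TAAT in a window is common. GGGCGG (either strand), the core of a GC box, occurred once before Chrm2 and in 32.7% of windows, and CANNTG, the E-box, occurred before neither and in 66.2% of windows. A match is letters only, and the printed Chrm3 run is 206 bases long because 44 bases lie inside the GENCODE gene model.

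Chrm2 was the receptor found in most cholinergic nuclei. It gave 64375 corrected counts in 13099 of 16042 nuclei (81.7%), with up to 46 in a nucleus. Skeletal MNs held a median of 612 CPM over the 9 libraries (446 to 785), interneurons 614 CPM (451 to 870) and visceral MNs 272 CPM (112 to 451). The ranges of skeletal MNs and interneurons lay on each other, and the visceral range met theirs only at its top. On the log2(CPM + 5) scale Chrm2 was higher in skeletal than in visceral MNs by 1.28 (SE 0.19, n = 9 libraries, limma adjusted p = 4.53e-06) and lower in visceral MNs than in interneurons by a difference of -1.37 (SE 0.19, limma adjusted p = 3.24e-06). Between skeletal MNs and interneurons the difference was -0.09 (SE 0.19, limma adjusted p = 0.705). Calls were frequent among all genes tested in these contrasts, at 66.7% for skeletal against visceral MNs, 51.4% for visceral MNs against interneurons and 59.5% for skeletal MNs against interneurons. The authors drew the classes from the same nuclei, so these p-values say how steadily 9 libraries of 3 pools repeat a difference. Without the 2 libraries in doubt the 3 differences were 1.43, -1.55 and -0.12.

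The share of nuclei with Chrm2 ordered the classes differently from its level. At least 1 corrected count was found in 96.1% ± 3.18 (SD, n = 9) of skeletal nuclei, 83.4% ± 4.10 of interneuron nuclei and 64.8% ± 27.2 of visceral nuclei. The skeletal share was above that of interneurons by 12.6 points and above that of visceral MNs by 31.3 points, in 9 of 9 libraries each (two-sided exact sign flips of the 9 differences, p = 0.00391, the smallest possible; adjusted p = 0.0176 over 18 tests). The flips take the 9 libraries as independent, although they come from 3 pools, over which the smallest possible p is 0.25. Without the 2 libraries in doubt the differences were 11.7 and 35.1 points, each with an adjusted p of 0.0563 at the smallest exact p that 7 libraries allow. Thinned to 4600 corrected counts per nucleus, both differences passed again (exact sign flips, adjusted p = 0.0141 in each). Thinning left out 8.63% of nuclei, all of them in lumbar/sacral replicates 1 and 3. Interneurons thus reached the skeletal level with fewer positive nuclei.

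Among skeletal MNs, Chrm2 was highest in S2, the cluster with the alpha MN markers Stk32a (352 CPM against 14.3 in S1 and 10.1 in S3) and Rbfox3 (229 CPM against 35.8 and 64.3). S2 held a median of 846 CPM (453 to 936), S3, the cluster with the gamma markers Nrp2 and Plekhg1, 507 CPM (409 to 729), and S1, the Type 3 cluster marked by Gpr149, 449 CPM (390 to 662). Every library had more Chrm2 in S2 than in S1, and 8 of 9 had more in S2 than in S3, the exception being lumbar/sacral replicate 2 with 453 CPM in S2 and 507 CPM in S3. The S2 excess was 0.43 over S3 (SE 0.08, limma adjusted p = 5.48e-05) and 0.50 over S1 (SE 0.08, limma adjusted p = 1.02e-05) on the log2(CPM + 5) scale, while S1 and S3 differed by -0.07 (SE 0.08, limma adjusted p = 0.655). Of all genes tested, 31.1% were called between S2 and S3, 25.4% between S2 and S1 and 19.8% between S1 and S3. Almost all nuclei of each type held Chrm2, 98.6% ± 1.84 in S2, 95.6% ± 4.01 in S1 and 95.2% ± 4.20 in S3 (SD, n = 9). The share of S2 passed neither test (exact sign-flip, adjusted p = 0.0804 against S3 and 0.0563 against S1), but with at least 2 corrected counts as the bar, S2 exceeded S1 by 9.23 points (exact sign-flip, adjusted p = 0.0234), while its 7.93 points over S3 did not pass (adjusted p = 0.0502). The cluster with alpha MN markers, the known C-bouton targets, thus had the highest Chrm2 level of the 3, and nearly all nuclei of the others held the transcript too. The oligodendrocyte transcript Mbp was at 89.3 CPM in S2, 88.3 CPM in S1 and 24.1 CPM in S3, and its part in the difference was not tested.

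**Figure D1:**
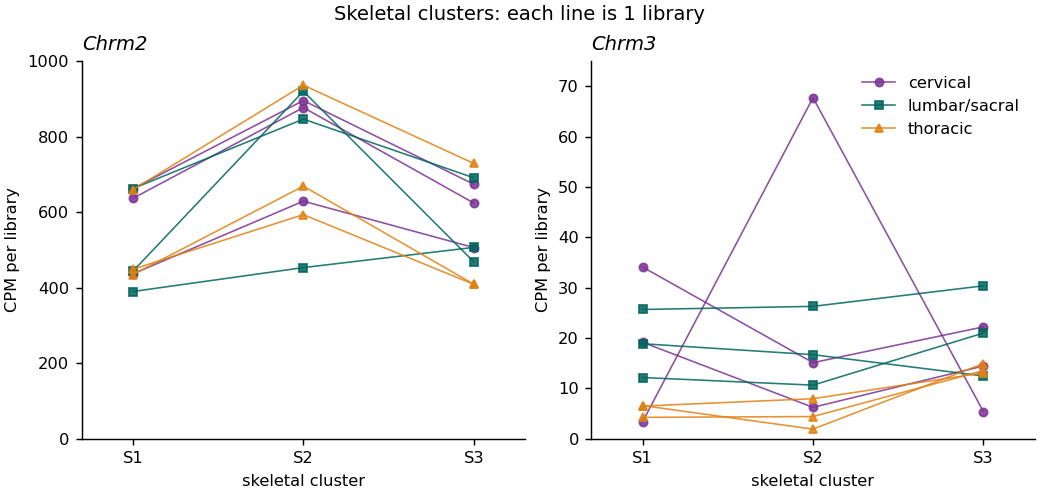
CPM of Chrm2 (left) and Chrm3 (right) in the skeletal clusters S1, S2 and S3; each line is 1 of 9 libraries, coloured by the region on its label. Chrm2 peaks in S2 in 8 of 9 libraries, and Chrm3 has 1 high point, 67.7 CPM in S2 of the library labelled cervical replicate 2.

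Chrm3 was low throughout skeletal MNs. It gave 17450 corrected counts in 4387 of 16042 nuclei (27.3%), with up to 46 in a nucleus. Skeletal MNs held a median of 15.0 CPM (8.14 to 29.9), visceral MNs 98.7 CPM (42.7 to 673) and interneurons 191 CPM (126 to 345). The skeletal range lay below both others, and the visceral range was widest. Chrm3 was lower in skeletal than in visceral MNs, by a log2 difference of -3.00 (SE 0.37, limma adjusted p = 3.60e-07), and lower than in interneurons, by -3.41 (SE 0.37, limma adjusted p = 6.47e-08). Visceral MNs and interneurons differed by -0.41 (SE 0.37, limma adjusted p = 0.372). Chrm3 was found in 10.4% ± 10.2 of skeletal, 37.8% ± 20.02 of visceral and 38.7% ± 6.84 of interneuron nuclei (SD, n = 9). The skeletal share lay below each of the others in every one of the 9 libraries (adjusted p = 0.0176 for both by exact sign flips). Thinned to 4600 corrected counts the shares were 5.59%, 31.6% and 34.2%, and the skeletal share was again lowest in 9 of 9 libraries (exact sign flips, adjusted p = 0.0141). A skeletal nucleus that held Chrm3 had a median of 1 corrected count, against 3 in visceral and interneuron nuclei. The cluster with the lowest share was I8, at 4.26% of 329 nuclei (exact 95% interval 2.35 to 7.04%, counting error only; median depth 7398 corrected counts against 7393 in skeletal nuclei). No cell type known to lack Chrm3 was among the nuclei, so how much of the skeletal 8.27% (pooled) is free RNA was not tested.

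Chrm3 did not separate the skeletal types when all libraries were used. S1 held a median of 12.2 CPM (3.36 to 34.1), S2 10.6 CPM (1.91 to 67.7) and S3 14.4 CPM (5.37 to 30.4). The differences were -0.22 for S2 against S3 (limma adjusted p = 0.647), 0.03 for S2 against S1 (limma adjusted p = 0.961) and -0.25 for S1 against S3 (limma adjusted p = 0.712), each with an SE of 0.31. The library labelled cervical replicate 2 stood apart in S2, with 74.6% of 71 nuclei positive, 48 of them at exactly 1 corrected count, and it was also the deepest library. Without the 2 libraries in doubt, Chrm3 was lower in S2 than in S3 by -0.62 (limma adjusted p = 0.0114).

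Chrm1, a Gq-coupled receptor best known from the forebrain, was near the limit of detection. It had 78 corrected counts in 74 nuclei (0.461%), at most 3 in a nucleus, and fell below the filter of 10 CPM in at least 3 sums in every comparison, so no fold change is given. Its mean level was 0.834 CPM in visceral MNs, 0.432 CPM in skeletal MNs and 0.213 CPM in interneurons. Pooled over libraries, 0.909% of visceral nuclei held it (exact 95% interval 0.677 to 1.19%), against 0.297% of skeletal nuclei (0.166 to 0.489%) and 0.149% of interneuron nuclei (0.0643 to 0.293%), intervals that cover counting error only. Most positive nuclei came from replicate 1, the mixed pool. Its cervical, thoracic and lumbar/sacral libraries held 14, 19 and 1 positive visceral nuclei. They held 4, 4 and 6 skeletal and 2, 4 and 1 interneuron ones. For visceral nuclei, replicate 2 had 7, 0 and 0 and replicate 3 had 3, 7 and 0. Outside replicate 1, skeletal MNs and interneurons had 1 positive nucleus each, in the library labelled cervical replicate 2. V1 held 25 of the 74 positive nuclei, 3.13% of its 798 (2.04 to 4.59%), at a median depth of 8663 corrected counts per nucleus. Over libraries no class pair passed for Chrm1 (the visceral share exceeded that of interneurons by 0.544 points, in 6 of 9 libraries, with the other 3 tied; exact sign-flip, adjusted p = 0.0804).

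Chrm5, a Gq-coupled receptor of midbrain dopamine neurons, had 0 counts in 16042 nuclei, which allows a share of up to 0.0187% of nuclei with a count. Its GENCODE model is a single exon of 1599 bases on chromosome 2 (112479171 to 112480769, minus strand), whereas RefSeq gives the gene 57629 bases. Chrm4, the other Gi/o-coupled receptor, has a GENCODE model of a single exon of 1440 bases on chromosome 2 (91927249 to 91928688, plus strand) and 7647 bases in RefSeq. A count from the 3′ end could fall outside such short models, so a 0 for Chrm5 says little of the transcript. The authors counted on Ensembl transcripts of this genome, of a release not given in the sources used here.

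Across clusters, Chrm2 and Chrm3 had different leaders. Chrm2 was highest in the interneuron clusters I7 (mean 1224 CPM), I1 (1052), I8 (885) and I3 (865), followed by S2 (758) and V7 (718). Its lowest clusters were V8 (27.5 CPM), I2 (107) and V5 (166). Interneurons alone thus spanned Chrm2 from 107 to 1224 CPM. Chrm3 was highest in I5 (682 CPM), V8 (660) and V3 (609), then I2 (306) and I1 (294), and lowest in I8 (6.78 CPM), I3 (12.1) and S1 (14.5). V8 and I2 stood near the top for Chrm3 and near the bottom for Chrm2, whereas I1 was high for both. These means pool regions, while V8 rests on lumbar/sacral libraries and V9 on cervical and thoracic ones. Over lumbar/sacral libraries alone Chrm3 was highest in V3 (922 CPM), V2 (680), V8 (660) and I5 (623), and Chrm2 was again highest in I7, I1 and I8.

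In full, the order of mean Chrm2 level went on from V7 through I4 (600 CPM), S3 (557), V10 (541), S1 (530), V4 (479), V9 (438), I6 (421), I5 (243), V6 (225), V3 (193), V1 (192) and V2 (188). For Chrm3 it went on from I1 through V2 (233 CPM), V10 (215), V5 (209), V6 (110), V1 (69.0), I6 (60.2), I7 (59.0), V4 (32.9), V9 (27.9), V7 (24.2), S2 (17.4), I4 (17.2) and S3 (16.4). The place of S2 rests on the library labelled cervical replicate 2: without the 2 libraries in doubt S2 was at 11.6 CPM, below every cluster but I8 (6.98). No neighbouring pair among the 20 of either receptor differed after adjustment over 40 tests (two-sided exact sign-flip over libraries, smallest adjusted p = 0.156, with 3 pairs per receptor under 0.05 unadjusted). A lone pair at the smallest p that 9 libraries allow would itself be adjusted to 0.156, so the design could not have shown a single step. Ranking by share of nuclei gave nearly the same orders, with a Spearman correlation over the 21 clusters of 0.956 for Chrm2 and 0.986 for Chrm3. Over the clusters the mean log2 levels of the 2 receptors had a Pearson correlation of -0.616, a description of 21 points that share libraries.

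**Figure D2:**
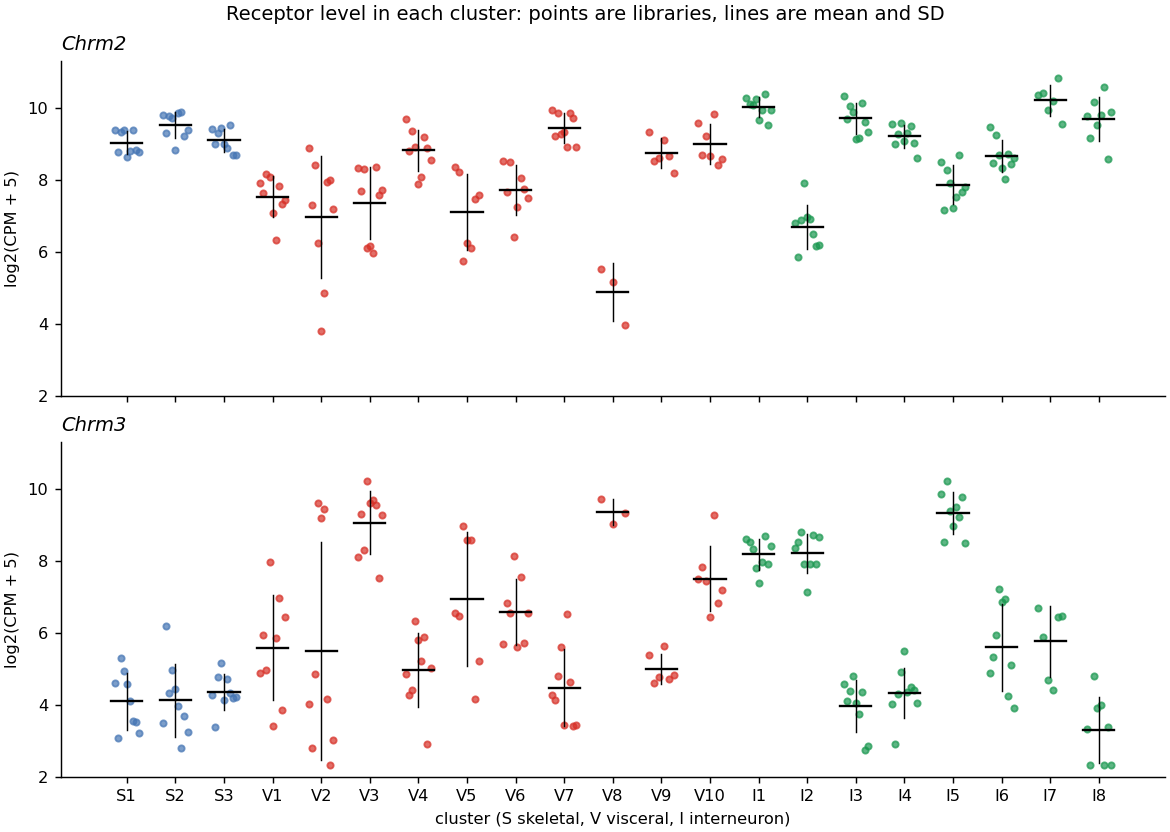
Level of Chrm2 (top) and Chrm3 (bottom) as log2(CPM + 5) in the 21 clusters; points are libraries with at least 10 nuclei, horizontal lines are means and vertical lines SD. V8 and I2 are low for Chrm2 and high for Chrm3, and V2 falls into 2 separate sets of libraries for both receptors.

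Among interneurons both receptors varied between clusters. The spread of cluster means was 3.46 for Chrm2 (limma F test, adjusted p = 7.11e-35) and 6.06 for Chrm3 (adjusted p = 1.41e-31) on the log2 scale, where 65.8% of all genes were called. I5 and I6 were unlike each other in both receptors. I5 had the highest Chrm3 of all clusters, with a median of 658 CPM (354 to 1176), and I6 had 35.2 CPM (10.1 to 144). For Chrm2 the sides were exchanged, with 220 CPM in I5 (138 to 412) and 387 CPM in I6 (256 to 709). Chrm2 was higher in I6 than in I5 in 9 of 9 libraries, by 0.81 on the log2 scale (exact sign-flip, p = 0.00391, adjusted p = 0.156 over the 40 neighbouring pairs).

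Visceral clusters varied too. The spread of cluster means was 3.69 for Chrm2 (limma F test, adjusted p = 1.10e-17) and 4.58 for Chrm3 (adjusted p = 5.97e-12), where 32.3% of all genes were called. V7, V10, V4 and V9 were Chrm2-rich, with medians of 635 CPM (473 to 987), 407 CPM (337 to 911), 465 CPM (232 to 818) and 393 CPM (288 to 637). V8 was the reverse, with Chrm3 at 835, 512 and 632 CPM in the 3 lumbar/sacral libraries and Chrm2 at 40.7, 31.0 and 10.8 CPM there. V8 was also a lumbar/sacral cluster, with 463 of its 467 nuclei from those libraries.

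Region was the second axis along which visceral MNs differed. In lumbar/sacral cord visceral Chrm2 was at 128, 112 and 112 CPM in replicates 1 to 3, against 447, 301 and 398 CPM in the cervical libraries and 451, 272 and 256 CPM in the thoracic ones. Visceral Chrm3 went the other way, at 673, 408 and 465 CPM in lumbar/sacral cord against 87.7, 95.3 and 98.7 CPM in cervical and 133, 42.7 and 93.8 CPM in thoracic cord. Neither receptor's lumbar/sacral values overlapped those of the 6 other libraries. Against the mean of cervical and thoracic cord (rostral), lumbar/sacral Chrm2 was lower by a log2 difference of -1.52 (SE 0.19, limma adjusted p = 0.00287) and Chrm3 higher by 2.46 (SE 0.30, limma adjusted p = 0.00218). Of all genes, 4.27% (428) were called, and 737 were called with the replicate block. The lowest median depths were also in lumbar/sacral libraries, at 4712 and 5701 corrected counts in replicates 1 and 3. Thinned to 4600 corrected counts, visceral shares were 25.6 to 28.9% in lumbar/sacral against 53.7 to 73.8% in rostral libraries for Chrm2. For Chrm3 they were 54.9 to 64.5% against 9.70 to 23.1%. Thinning left out 44.1% of all nuclei of lumbar/sacral replicate 1, 13.6% of those of replicate 3 and none elsewhere. It acts on corrected counts, and the part of read depth in the difference was not tested. Without both libraries in doubt the differences were -1.65 (limma adjusted p = 0.00376) and 2.25 (limma adjusted p = 0.00166).

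**Figure D3:**
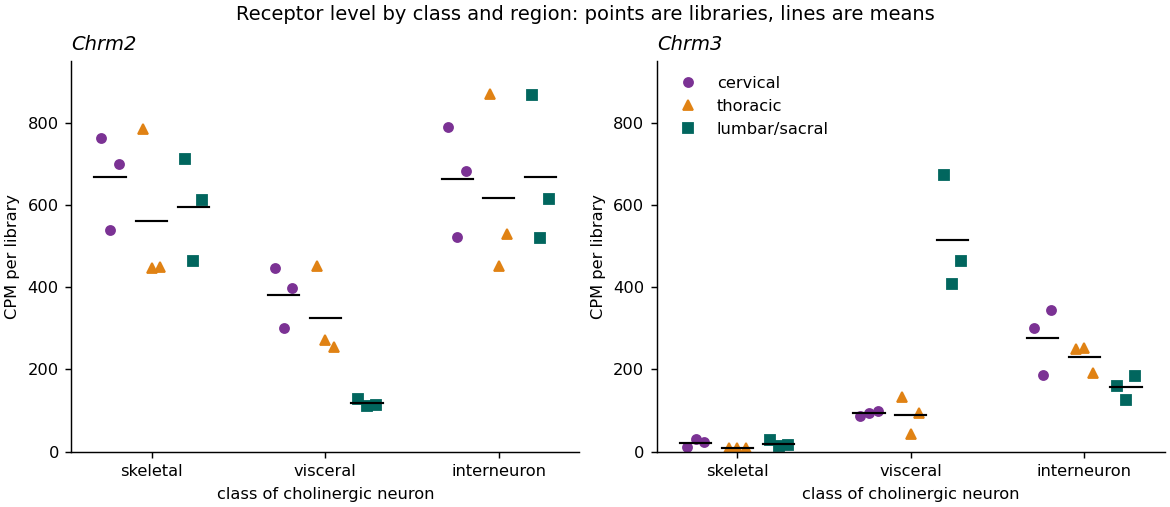
CPM of Chrm2 (left) and Chrm3 (right) in each class by region; points are libraries (3 per region, by the label) and short lines are means. In visceral MNs the 3 lumbar/sacral libraries lie at 112 to 128 CPM for Chrm2 and at 408 to 673 CPM for Chrm3, apart from the other libraries, and they mix with the others for Chrm2 in skeletal MNs and interneurons.

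The change in visceral MNs was seen inside clusters as well as through V8, which made up 25.8 to 33.4% of lumbar/sacral visceral nuclei. Leaving V8 out of the class kept both differences, at -1.12 for Chrm2 (limma adjusted p = 0.0257) and 2.27 for Chrm3 (limma adjusted p = 0.00545). In V2, Chrm3 stood at 770, 579 and 692 CPM in lumbar/sacral cord and at 0 to 24.03 CPM in the 6 rostral libraries, while Chrm2 stood at 71.6, 8.91 and 23.99 CPM against at least 142 CPM. V2 thus held both receptor patterns under 1 cluster name, split by region without overlap. In V5, Chrm3 was at 495, 378 and 375 CPM against 12.7 to 88.3 CPM in 4 rostral libraries, and Chrm2 at 49.3, 71.6 and 64.4 CPM against 172 to 322 CPM. In V3, Chrm3 was at 1174, 771 and 821 CPM against 177 to 737 CPM, and Chrm2 at 63.8, 67.1 and 57.7 CPM against 187 to 322 CPM. Over the 7 visceral clusters with at least 2 libraries on each side, all lumbar/sacral values were lower for Chrm2 in 4 (V2, V3, V5 and V6) and higher for Chrm3 in 3 (V2, V3 and V5). V7 kept high Chrm2 in lumbar/sacral cord, at 473 to 635 CPM against 480 to 987 CPM. These cluster values are descriptions, with no test, and the share of all genes that separate in this way is not given here. V6 had 2 lumbar/sacral libraries, of 13 and 10 nuclei.

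**Figure D4:**
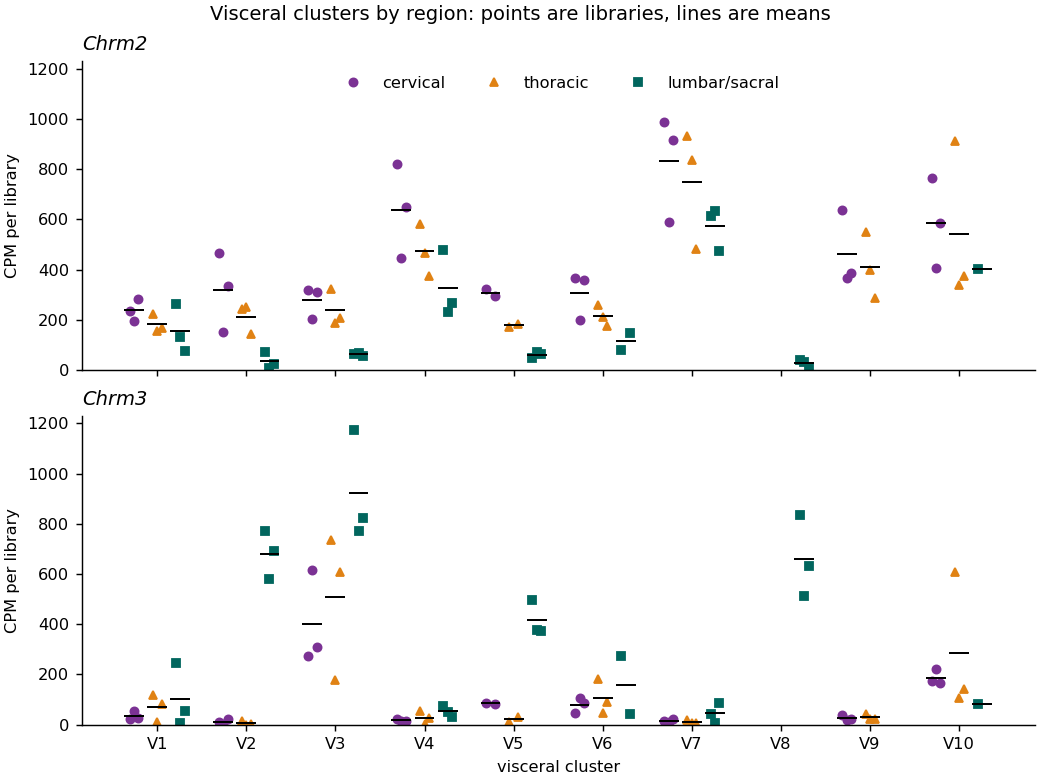
CPM of Chrm2 (top) and Chrm3 (bottom) in the 10 visceral clusters by region; points are libraries with at least 10 nuclei of the cluster and short lines are means. In V2, V3 and V5 every lumbar/sacral library lies below the others for Chrm2 and above them for Chrm3, and V8 appears in lumbar/sacral libraries alone.

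The regional change of visceral MNs differed from that of the other classes when tested directly. For Chrm2 the lumbar/sacral minus rostral difference was -1.52 in visceral MNs, against -0.03 in skeletal MNs and 0.06 in interneurons. The interaction was 1.49 for skeletal minus visceral MNs (SE 0.10, limma adjusted p = 2.00e-09). It was -1.58 for visceral MNs minus interneurons (SE 0.10, limma adjusted p = 6.63e-10). For Chrm3 the same interactions were -2.14 (SE 0.36, limma adjusted p = 0.000338) and 3.12 (SE 0.36, limma adjusted p = 3.11e-06). Between skeletal MNs and interneurons the interaction was -0.09 for Chrm2 (limma adjusted p = 0.737) and 0.98 for Chrm3 (limma adjusted p = 0.269). Calls over all genes were 9.73%, 8.27% and 0.7% in these 3 interactions.

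Within skeletal MNs and interneurons no regional difference of a receptor was called. Lumbar/sacral minus rostral was -0.03 (SE 0.22, limma adjusted p = 0.981) for Chrm2 and 0.32 (SE 0.25, limma adjusted p = 0.900) for Chrm3 in skeletal MNs, where 0.01% of genes were called. In interneurons it was 0.06 (SE 0.24, limma adjusted p = 0.9997) for Chrm2 and -0.66 (SE 0.20, limma adjusted p = 0.709) for Chrm3, where 0.051% of genes were called. Interneuron Chrm3 was at 161, 126 and 184 CPM in lumbar/sacral cord and at 186 to 345 CPM in the other 6 libraries, so the values did not overlap although the test was not passed. Of the 8 interneuron clusters, described with no test, Chrm3 had all lumbar/sacral values higher in 2 (I6 and I8), all lower in 2 (I2 and I7) and overlapping in 4, and Chrm2 had them all higher in 1 (I2). I7 had 3 libraries on each side, and the share of all genes that separate in this way is not given here. I6 had Chrm3 at 111 to 144 CPM in lumbar/sacral against 10.1 to 55.9 CPM in rostral libraries, and I2 had 135 to 233 CPM against 236 to 436 CPM. Within S1, S2 and S3 the lumbar/sacral minus rostral differences ran from -0.14 to 0.01 for Chrm2 and from 0.47 to 0.67 for Chrm3 (limma adjusted p from 0.827 to 0.993), with 0%, 0% and 0.0711% of genes called and 439, 245 and 579 genes at an unadjusted p under 0.05. Cervical and thoracic libraries differed by 0.14 to 0.29 for Chrm2 and by 0.19 to 0.88 for Chrm3 over the classes (limma adjusted p from 0.719 to 0.945). For those contrasts limma called 0% of genes, with 607, 160 and 189 genes at an unadjusted p under 0.05 in skeletal, visceral and interneuron nuclei. The skeletal Chrm3 difference of 0.88 was 0.71 without the 2 libraries in doubt and 0.067 with their labels exchanged, and the interneuron one of 0.23 was 0.55 and 0.51. For Chrm2 the skeletal difference of 0.29 was 0.30 and 0.11, and the interneuron one of 0.14 was 0.11 and 0.0031.

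No difference between the male and the female pool was called for either receptor. Each sex is 1 pool, and the SE is over its 3 regions, so it holds no spread between pools. Male minus female Chrm2 was -0.26 (SE 0.13) in skeletal, -0.11 (SE 0.13) in visceral and -0.28 (SE 0.09) in interneuron nuclei, and Chrm3 was 0.12 (SE 0.15), -0.43 (SE 0.22) and -0.34 (SE 0.26), with limma adjusted p from 0.340 to 0.753. Calls over all genes were 0.0725%, 0.0513% and 0.0521%. The mixed pool had the highest Chrm2 of its region in all 3 classes and all 3 regions, for example a mean of 754 CPM in skeletal MNs against 483 CPM in the male and 587 CPM in the female pool.

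The receptors also combined differently within nuclei. Over all nuclei 63.8% held Chrm2 alone, 17.9% both, 9.49% Chrm3 alone and 8.85% neither. Skeletal nuclei were 87.9% Chrm2 alone and 0.435% Chrm3 alone. Visceral nuclei were the most even, with 50.2% Chrm2 alone, 17.7% Chrm3 alone, 17.5% both and 14.7% neither. Both receptors together were most frequent in I1 (53.9% of 1520 nuclei) and I5 (52.6% of 584), whereas V8 held Chrm3 alone in 74.1% and Chrm2 alone in 2.57% of 467 nuclei. Chrm2 was found in 74.4% of Chrm3-positive and 89.4% of Chrm3-negative interneuron nuclei, and in 58.5% and 72.1% of visceral nuclei (means over 9 libraries, lower in 9 of 9 libraries in both classes). Inside single clusters that gap passed adjustment in 0 of 18 (exact sign flips, smallest adjusted p = 0.281, with 1 cluster, I2, under 0.05 unadjusted). No cluster had more than 8 such libraries, so no outcome could have passed over 18 tests. Whether the gap is present inside clusters is thus not decided by these tests.

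**Figure D5:**
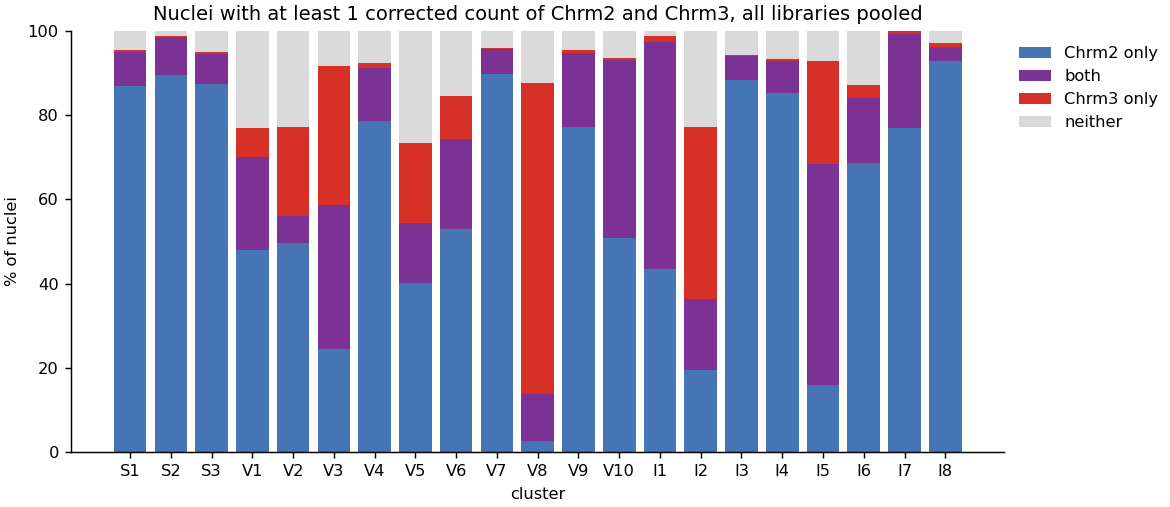
Percent of nuclei in each cluster with at least 1 corrected count of Chrm2 alone, both receptors, Chrm3 alone or neither, all libraries pooled (nuclei from deeper libraries count more often as positive). Chrm2 alone fills 87.0 to 89.6% of the skeletal clusters, Chrm3 alone fills 74.1% of V8, and both fill 53.9% of I1.

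The gene most like Chrm2 over the 21 clusters was its neighbour. Among 14465 genes, 9330158H04Rik had a Pearson correlation of mean log2(CPM + 5) with Chrm2 of 0.938, followed by Ppp1r16b (0.770) and Ndrg4 (0.717). 9330158H04Rik is a long noncoding RNA on the opposite strand (chromosome 6, 36209620 to 36390191), its GENCODE model shares 2108 bases with that of Chrm2, and RefSeq starts it 150 bases inside Chrm2. Whether reads of the 2 genes could be counted for each other was not tested. Most like Chrm3 were Gm15577 (0.766), 4930570G19Rik (0.749) and Pcsk5 (0.723), of which the first 2 are noncoding RNAs of chromosome 3. All 21 points come from the same 9 libraries.

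The partners of the receptors were taken from 9 lists of 73 genes. Between skeletal and visceral MNs 55 of 64 tested were called (85.9% against 66.7% of all genes; 23 higher, 32 lower; median log2 difference -0.20 against -0.04 over all genes). Skeletal MNs against interneurons gave 44 of 64 (68.8% against 59.5%), and visceral MNs against interneurons 49 of 64 (76.6% against 51.4%). The reason for these shares was not tested, and nothing particular to the lists follows from the counts.

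Of the 11 tested genes of the Gq arm, 10 were called between skeletal and visceral MNs, 5 in each direction, beside 66.7% of all genes. The IP3 receptors Itpr3 and Itpr2, which release calcium from the endoplasmic reticulum, were higher in skeletal MNs by 3.51 (SE 0.14) and 2.23 (SE 0.12). The protein kinase C Prkca was lower, by -1.68 (SE 0.18). In the same contrast Kcnq5, an M-current channel, was lower in skeletal MNs by -1.58 (SE 0.14). Against interneurons it was lower by -3.32 (SE 0.14, limma adjusted p = 1.02e-14).

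On the Gi/o side, 9 of 10 tested subunits were called between skeletal and visceral MNs, 7 of them lower in skeletal MNs. The contrast called 66.7% of all genes. Gnb4, a beta subunit, was lower by -3.23 (SE 0.15) and Gng2, a gamma subunit, by -1.35 (SE 0.07), while Gnb5 and Gnao1 were higher by 0.23 and 0.14. Of the adenylyl cyclases, which make cyclic AMP, 7 of 7 were called, with Adcy8 (3.01) and Adcy1 (1.44) higher and Adcy2 (-2.003) and Adcy3 (-0.60) lower in skeletal MNs. GIRK subunits Kcnj3 (1.004, SE 0.13) and Kcnj6 (0.98, SE 0.11) were higher in skeletal than in visceral MNs, 2 of 3 tested, and both were lower in visceral MNs than in interneurons, by -1.64 and -2.75. Skeletal MNs were in turn below interneurons for both, by -0.64 for Kcnj3 and -1.77 for Kcnj6. Kcnj9, the other GIRK subunit tested, went the opposite way. It was above interneurons by 0.62 (SE 0.10) in skeletal and by 0.53 (SE 0.10) in visceral MNs.

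RGS proteins, which speed the switching-off of G proteins, had 8 of 12 tested called between skeletal and visceral MNs, 4 each way. The share of all genes called in this contrast was 66.7%. Rgs6 (2.17) and its partner Rgs7bp (1.76) were higher and Rgs9 (-3.32) and Rgs10 (-1.09) lower in skeletal MNs. Receptor kinases and arrestins, which shut receptors down, had 7 of 7 called, Grk5 (0.39) and Arrb1 (0.12) higher and Grk3 (-0.79) and Arrb2 (-0.48) among the 5 lower. For acetylcholine itself, 4 of 5 tested were called: Colq (1.97), the tail of muscle-type acetylcholinesterase, and Chat (0.45), the synthesizing enzyme, were higher, and Prima1 (-1.86), the membrane anchor of neuronal acetylcholinesterase, and Ache (-0.34) lower in skeletal MNs.

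Proteins found at C-boutons were compared between S2 and S3, where Chrm2 differed. Kcnn3, an SK channel, was higher in S2 by 1.78 (SE 0.12, limma adjusted p = 2.55e-12). Nrg1 was lower by -0.30 (SE 0.08, limma adjusted p = 0.00286), and Kcnn2, another SK channel, did not pass (0.04, SE 0.07, limma adjusted p = 0.726). Over the 9 lists 32 of 62 tested were called between S2 and S3, 51.6% against 31.1% of all genes, 16 in each direction. Gna14, a Gq family subunit, was higher in S2 by 3.82 (SE 0.22) and Itpr1 by 3.60 (SE 0.15), and Plcb4, a phospholipase C, was lower by -0.86 (SE 0.09). Of the GIRK subunits Kcnj3 was higher in S2 by 1.52 (SE 0.09) and Kcnj6 lower by -1.96 (SE 0.23). Prima1 was lower in S2 by -2.27 (SE 0.25).

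In lumbar/sacral against rostral visceral MNs, where Chrm2 and Chrm3 moved in opposite directions, 8 of 58 tested genes of the lists were called (13.8% against 4.27% of all genes). Itpr1 was higher by 1.52 (SE 0.16, limma adjusted p = 0.00093), Kcnn2 by 0.96 (SE 0.20, limma adjusted p = 0.0289) and Kcnj3 by 0.92 (SE 0.21, limma adjusted p = 0.0448). Prkca was lower by -1.12 (SE 0.15, limma adjusted p = 0.00305), Plcb4 by -1.03, Rgs20 by -0.96, Rgs12 by -0.93 and Gnb4 by -0.60. The 3 Gq arm genes among them, Itpr1, Prkca and Plcb4, went in both directions, and they were named after their values were seen.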

How the data were processed

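Nuclei were sorted from spinal cord and made into 9 single-nucleus 10x 3′ v3 libraries. Per the labels and the study's methods, the authors ran Cell Ranger 3.1.0 on mm10 with whole transcribed genes as the reference, so intronic reads counted, removed outlier nuclei, normalized each barcoded region with SCTransform in Seurat, clustered the nuclei and named the clusters. The deposited values are SCTransform-corrected counts, whole numbers that were treated as a score and not as raw counts, since the correction evens out the totals of a library's nuclei. Original read depth is unknown, so intervals on shares cover counting error of corrected values only, and no count model was fitted.

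Corrected counts were summed per library and class or cluster (at least 10 nuclei), scaled to CPM and tested as log2(CPM + 5) with limma 3.58.1 (trend, R 4.3.3) across all genes that reached 10 CPM in 3 or more sums, with Benjamini-Hochberg adjustment and a threshold of 0.05. A fold on this scale understates changes of low genes. Class, cluster and interaction fits had a library term; sex fits had a region term and left out the mixed pool (6 libraries). Shares of nuclei were compared by two-sided exact sign flips over libraries (512 with 9). Python 3.11.15, numpy 2.4.6, pandas 2.3.3, scipy 1.17.1 and matplotlib 3.10.9 were used, and each fit was tested on simulated data. Scrublet (scanpy 1.11.5) called 164 nuclei (1.02%) as doublets, which were kept in the main values and left out in an alternative.

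Libraries with the same replicate number come from the same mice, which pairs them by design. The correlation of their deviations from region means had a median of 0.67 in skeletal, 0.65 in visceral and 0.75 in interneuron sums (lowest -0.22). For different numbers the medians were -0.44, -0.40 and -0.45. Deviations sum to 0 over the replicates of a region, so these negative medians are not separate evidence. Cervical replicate 3 was an exception, at -0.22 to -0.01 with the other replicate 3 libraries and 0.32 to 0.46 with those of replicate 1. Each pool is 4 mice, and the fits take the 9 libraries as units, so p-values measure the spread between libraries of 3 pools.

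The members and gene lists were chosen with earlier results of these data known. Of each pathway list, up to 2 called genes with the largest change in each direction were named, and for each receptor the 3 genes most alike over clusters. Alternatives were other pseudocounts, filters and scaling, thinning, the replicate block and leaving out libraries. Those on the 2 libraries in doubt, on V8 and on lumbar/sacral libraries alone were chosen after seeing the data. Some genes of the lists are not reported here by name.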

Additional observations from a re-analysis of the deposited data

Results flagged for a closer look

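In 5 of 46 combinations of a receptor and a group of nuclei, 1 library lay far from the others of its group by Dixon's criterion, which chance meets in about 1 of 20. Chrm2 in I2 was at 236 CPM in lumbar/sacral replicate 1 (next highest 121 CPM). Chrm3 was at 67.7 CPM in S2 of the library labelled cervical replicate 2, at 245 CPM in V1 of lumbar/sacral replicate 1, at 610 CPM in V10 of thoracic replicate 1 and at 87.4 CPM in V7 of lumbar/sacral replicate 3.

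The lumbar/sacral minus rostral difference itself differed between classes in 4 tests of the interaction. Skeletal minus visceral was 1.49 for Chrm2 and -2.14 for Chrm3, and visceral minus interneuron was -1.58 for Chrm2 and 3.12 for Chrm3 (log2 scale, limma). Without V8 these were 1.09, -1.95, -1.18 and 2.93, all past the threshold.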

How the results depend on the processing

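The 16 receptor differences called by limma kept their direction and call in 207 of 207 alternatives. Of 597 alternatives to the 36 uncalled differences, 562 left direction and call as they were, 2 passed the threshold and 33 turned the direction. The causes of these shifts were not tested.

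The replicate block changed no receptor call; with it, the visceral lumbar/sacral minus rostral difference had an adjusted p of 0.000665 for Chrm2 and 0.0011 for Chrm3, and 737 genes were called in place of 428. Without V8, 173 genes were called there. Over all alternatives the number of genes called ran from 160 to 737 in that comparison, from 1846 to 4631 (3560 in the reported fit) for S2 against S3, from 1636 to 4056 (2908) for S2 against S1, from 1348 to 2522 (2274) for S1 against S3, from 605 to 4634 (4253) among visceral clusters, from 936 to 9372 (8528) among interneuron clusters and from 3586 to 7358 (5803) for visceral MNs against interneurons. For the interactions it ran from 500 to 1158 (1099), 396 to 1008 (934) and 7 to 79 (79), for male against female from 0 to 1329 (7), 0 to 425 (5) and 0 to 1331 (5) in skeletal, visceral and interneuron sums, and for lumbar/sacral against rostral from 0 to 12 (1) in skeletal MNs, 1 to 44 (5) in interneurons, 0 to 23 (0) in S1 and 0 to 17 (7) in S3. Cervical against thoracic visceral MNs gave 0 to 46 (0).

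Without both libraries in doubt, Chrm3 passed in S2 against S3 (-0.62), and the difference turned to -0.43 for Chrm3 in S2 against S1, -0.25 for Chrm3 in visceral cervical minus thoracic, 0.26 for Chrm3 in S3 cervical minus thoracic, and -0.11 and -0.12 for Chrm2 in lumbar/sacral minus rostral interneurons and S3. Without them the shares of nuclei called before stood at 35.1 and 11.7 points for Chrm2 and -33.9 and -30.5 points for Chrm3 (skeletal minus visceral and minus interneuron) with an adjusted p of 0.0563, and turned to 0.0186 (Chrm1) and -0.0598 (Chrm2) in S1 minus S3, and for Chrm3 to 3.43 in visceral minus interneuron, -1.84 in S2 minus S3 and -2.96 in S2 minus S1. With their labels exchanged, Chrm3 cervical minus thoracic turned to -0.52 in visceral MNs, -0.23 in S2 and 0.44 in S3. A pseudocount of 1 turned Chrm3 in S2 against S1 to -0.00191, median-of-ratios scaling turned Chrm2 in S3 lumbar/sacral minus rostral to -0.16, and leaving out called doublets turned Chrm3 in S3 cervical minus thoracic to 0.16.

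Thinned to 4600 corrected counts, the Chrm2 share passed in visceral MNs against interneurons (-24.0 points) and S2 against S1 (5.11 points). With at least 2 corrected counts these were -25.1 and 9.23 points and passed, and the differences turned to -1.30 points for Chrm2 in S1 against S3, -0.225 points for Chrm3 in S2 against S3 and -0.770 points for Chrm3 in S1 against S3.

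With each replicate left out in turn, Chrm3 ran from -0.77 (without replicate 2, limma adjusted p = 0.0025) to 0.082 in S2 against S3 and from -0.48 to 0.35 in S2 against S1. Lumbar/sacral minus rostral Chrm2 ran from -0.16 to 0.14 in skeletal MNs, -0.14 to 0.23 in interneurons, -0.36 to 0.016 in S1, -0.28 to 0.23 in S2 and -0.16 to 0.15 in S3. Cervical minus thoracic ran from -0.24 to 0.53 for visceral Chrm3, -0.053 to 0.42 for interneuron Chrm2, -0.00158 to 0.33 for S2 Chrm2 and -0.41 to 0.29 for S3 Chrm3, and visceral male minus female Chrm2 from -0.21 to 0.039. Shares of nuclei, in points, ran from -0.00312 to 0.221 (skeletal minus interneuron), -0.287 to 0.456 (S2 minus S3) and -0.287 to 0.0217 (S1 minus S3) for Chrm1. For Chrm2 they ran from 30.7 to 31.7 (skeletal minus visceral) and 11.5 to 13.9 (skeletal minus interneuron), and for Chrm3 from -31.2 to -24.4, -31.6 to -26.7, -2.77 to 10.4 (S2 minus S3) and -3.75 to 10.3 (S2 minus S1). Leaving out a replicate leaves 6 libraries, for which the smallest exact p is 0.0312, and no share then passed adjustment.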
